A study of Mus musculus with 4 samples.

Results

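The genes described here encode the pore-forming subunits of the AMPA-type glutamate receptor (Gria1 to Gria4) and the transmembrane AMPA receptor regulatory proteins, or TARPs (Cacng2, Cacng3, Cacng4, Cacng5, Cacng7 and Cacng8). They were chosen by name, with earlier results of these data known. They are the genes of these symbols with array probe sets annotated to exactly 1 gene. All 10 were measured, out of 19938 genes. Expression was read on Affymetrix Mouse Gene 1.0 ST arrays in primary cortical neuron cultures prepared from newborn (postnatal day 0) pups of a mixed SV129 x C57BL/6 background. The labels describe the pups as Syt1 deficient or wild type and do not assign a genotype to an array. Knockdown cultures received lentiviruses carrying shRNAs against calmodulin 1 to 3 at 5 days in vitro, rescue cultures the same shRNAs and an shRNA-resistant wild-type calmodulin, and control cultures control lentiviruses. RNA was extracted on days 14 to 15 in vitro, and each group had 2 samples, from repeat 1 and repeat 2. The medium held Ara-C, an inhibitor of dividing cells, and the labels do not say whether the repeats were separate cultures. The p-values therefore cover the spread between 2 samples a group, which may be technical. That spread was pooled over both groups and moderated across all genes, so a standard error is not that of 1 group's samples alone.

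AMPA receptors carry most of the fast excitatory transmission in the cortex and are tetramers of the GRIA subunits. TARPs are auxiliary subunits that bring the receptor to the surface, hold it at synapses through postsynaptic scaffolds and modify its gating. The type I TARPs are stargazin (Cacng2), gamma-3 (Cacng3), gamma-4 (Cacng4) and gamma-8 (Cacng8), and the type II TARPs are gamma-5 (Cacng5) and gamma-7 (Cacng7). Calmodulin passes calcium signals to kinases and to the phosphatase calcineurin, which act on AMPA receptors and on transcription.

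Each value is a ratio of the test array to the control array of the same repeat, on the log2 scale, so that 0 is equality with control. The ratios hold no signal levels. Whether a probe set was bright or dim, and whether the defining markers of neurons were present, could not be read from them. Ratios were spread more widely over all genes in knockdown repeat 2 (standard deviation 0.349 on the log2 scale) than in the other 3 columns (0.232 to 0.243). Of the genes that the shRNAs target, Calm2 stood at -1.08 and -1.72 and Calm3 at -1.32 and -2.40 in the knockdown, and Calm2 at -0.84 and -1.28 and Calm3 at -2.41 and -3.55 in the rescue. Both lay below control in every sample. Of the 10 genes here, 9 were read by a single probe set and Cacng2 by 2, so flip and flop splice forms and edited forms of the subunits could not be told apart.

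Among the 10 genes, Cacng3 stood apart. It lay at 53.3% of control in the knockdown and at 149% of control in the rescue, and it differed between these groups by nearly the same amount in each repeat. Cacng8, Cacng2 and Cacng5 lay below control in both knockdown samples and near or above it in the rescue, by smaller amounts. The GRIA subunits showed no common direction, and Cacng4 and Cacng7 stayed close to control. In the linear model across all genes (limma, Benjamini-Hochberg adjustment over all genes, threshold 0.05), 0 of the 10 passed in any comparison. With the repeat as a block, Cacng3 passed against the rescue, and Cacng3 and Cacng8 passed against control. The block takes the spread that a repeat shares, the control array's included, out of the error, while a mean against control still carries it. Its p-values against control are therefore too small, and it made too many false calls there when run on simulated data. Calls against control under the block are given as counts and values and not as evidence of a change. The control array drops out of the difference between knockdown and rescue, where this limit does not apply. Under the block, simulated data still gave on average 22.3 false calls among 216.3 calls there, a share above the threshold of 0.05.

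The stretch before an annotated start of transcription is shown for Cacng2, which lay below control in both knockdown samples and close to it in the rescue. The sequence is the 250 bases before the start, on the sense strand, from RefSeq on GRCm38.p6. Capitals mark the match, on either strand, to the E-box CANNTG. The core GGAAA of sites for the calcineurin-dependent factor NFAT and the half-site TGACG of the cyclic AMP response element were searched as well.
Cacng2 (chr15:78119281-78119530, - strand): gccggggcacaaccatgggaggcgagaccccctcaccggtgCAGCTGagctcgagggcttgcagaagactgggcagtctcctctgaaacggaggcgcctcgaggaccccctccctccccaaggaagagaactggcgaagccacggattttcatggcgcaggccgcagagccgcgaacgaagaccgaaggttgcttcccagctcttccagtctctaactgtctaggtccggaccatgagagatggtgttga
The Cacng2 window held 1 E-box and 0 matches to the NFAT core or the half-site. Of 32851 such windows in the mouse annotation, 66.2% held an E-box, 55.6% the NFAT core and 17.8% the half-site, so the match is a common one. Windows of 6 of the 10 genes were searched, and the half-site was in 0 of their 7 windows. A match in these letters is a description and not a bound site.

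The first comparison, knockdown against control, addressed which transcripts change when calmodulin is depleted. Cacng3 was at -1.18 and -0.64 in the 2 knockdown samples. Both lay below control, farther in repeat 1. The mean was -0.91 (SE 0.17, n = 2, 95% interval -1.29 to -0.52), and the limma adjusted p was 0.0737, short of the threshold. With the repeat as a block the adjusted p was 0.00568. With 1 sample left out, Cacng3 passed without knockdown replicate 2 (-1.18, adjusted p = 0.00310) and did not pass without knockdown replicate 1 (-0.64, adjusted p = 0.0609) or without either rescue sample (adjusted p = 0.131 each). In the fits without a knockdown sample, the lone one is assumed to vary like the rescue. Ranked from the lowest knockdown mean, Cacng3 came at place 80 of 19938 genes.

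Cacng8, the TARP best known from the hippocampus, was at -0.47 and -0.63, or 68.4% of control on average. The 2 samples were close to each other. The limma adjusted p was 0.103 (mean -0.55, SE 0.12, n = 2), and 0.0341 with the repeat as a block. Cacng2, the gene disrupted in the stargazer mouse, was at -0.44 and -0.28 (mean -0.36, SE 0.12, n = 2, limma adjusted p = 0.204). Both of its probe sets were below control in each knockdown sample and differed in size. Probe set 10430282 was at -0.72 and -0.53, and probe set 10430280 at -0.16 and -0.03. Cacng5 was at -0.50 and -0.23 (mean -0.36, SE 0.15, n = 2, limma adjusted p = 0.288).

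The other TARPs were near control. Cacng4 was at 0.07 and -0.23, on both sides of control. Cacng7 was at 0.01 and 0.07, with a mean of 0.04 and a 95% interval of -0.22 to 0.31. Cacng7 and Cacng8 are neighbouring genes on GRCm38.p6, as are Cacng4 and Cacng5. In the 2 knockdown samples Cacng8 minus Cacng7 was -0.48 and -0.70 (log2). Cacng4 lay above Cacng5 in knockdown repeat 1 and level with it in repeat 2, where both were at -0.23.

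Among the receptor subunits, Gria1 (GluA1) was at -0.21 and -0.62 in the knockdown. Both samples lay below control, with a mean at 75.0% of it (limma adjusted p = 0.241, n = 2). Gria2 (GluA2), the subunit that makes the channel nearly impermeable to calcium once its transcript is edited, was at 0.05 and -0.27. Gria3 (GluA3) was at -0.27 and 0.19. These 2 genes lay on both sides of control. Gria4 (GluA4) was at 0.62 and 0.04, above control in both samples but by little in repeat 2 (limma adjusted p = 0.359, n = 2). In order of the knockdown mean the 10 genes ran Cacng3, Cacng8, Gria1, Cacng5, Cacng2, Gria2, Cacng4, Gria3, Cacng7 and Gria4, with a step of 0.36 from Cacng3 to Cacng8 and later steps of up to 0.29. Standard errors of the means were 0.11 to 0.17, and differences between genes were not tested.

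In this comparison 0 of 10 genes passed in limma, where 0.306% of all genes passed (27 higher and 34 lower, or 13 and 7 after quantile normalization). At an unadjusted p under 0.05 there were 5, Cacng3, Cacng8, Cacng2, Gria1 and Cacng5, where the share of all genes was 16.0%. The fit with the block passed 2 of 10, both lower, where it passed 3.48% of all genes as lower. Below control in both samples were 5 of the 10, against 31.1% of all genes, and above it in both were 2 of the 10 (Gria4 and Cacng7), against 30.5%. The median of the 4 subunits was -0.08 and that of the 6 TARPs -0.36, beside 0.00 for all genes. In the same 2 samples, 6 of 7 excitatory neuron markers lay below control and 10 of 10 astrocyte markers above it, and the part of this in the TARP values was not tested.

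**Figure D1:**
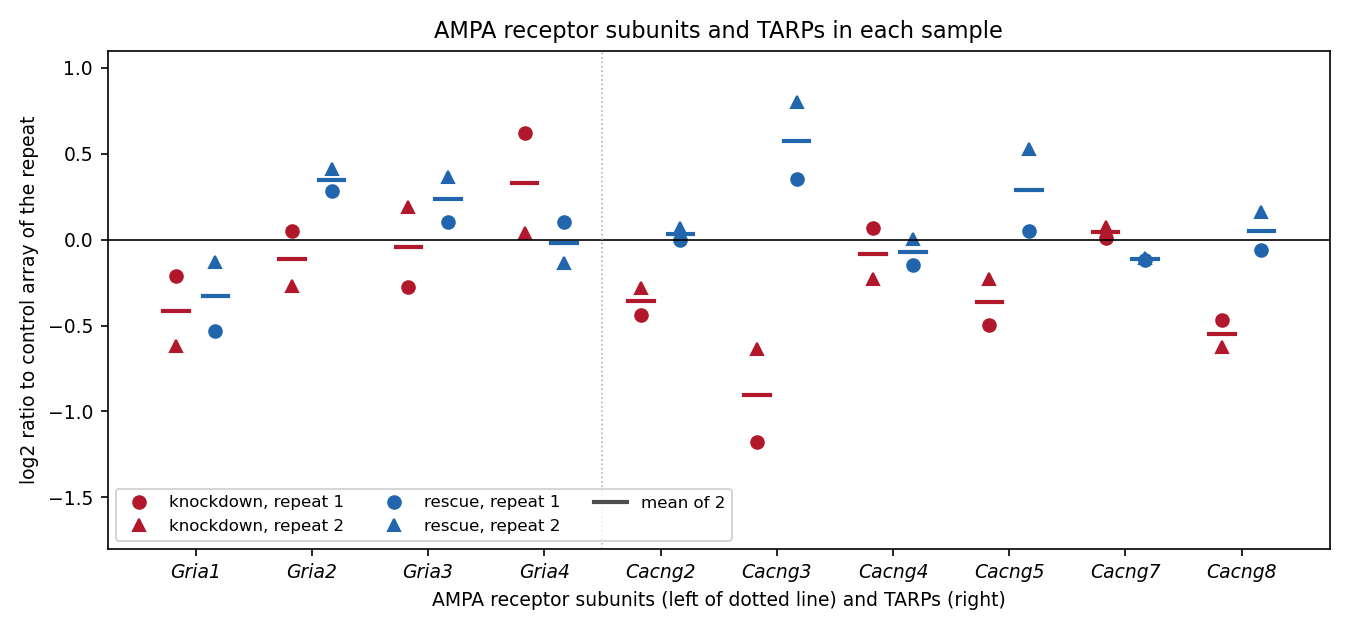
Log2 ratio to the control array of the same repeat (vertical axis) for each of the 10 genes (horizontal axis). Red marks are knockdown samples and blue marks rescue samples, circles are repeat 1, triangles repeat 2, and bars the mean of 2. Cacng3 is at -1.18 and -0.64 in the knockdown and at 0.35 and 0.80 in the rescue, the widest gap shown.

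The second comparison, rescue against control, addressed how near to control the cultures came with a resistant calmodulin. Cacng3 was at 0.35 and 0.80 in the rescue, above control in both samples. Its mean was 0.58 (SE 0.17, n = 2, 95% interval 0.19 to 0.96, limma adjusted p = 0.564, and 0.0806 with the repeat as a block). Cacng5 was at 0.05 and 0.53, with repeat 1 close to control and repeat 2 above it. Cacng8 was at -0.06 and 0.16 and Cacng2 at 0.00 and 0.07, all of them close to control. Cacng4 was at -0.15 and 0.01, and Cacng7 at -0.12 and -0.11, slightly below control in both samples.

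Gria2 was at 0.28 and 0.41 in the rescue, above control in both samples (mean 0.35, SE 0.13, n = 2, limma adjusted p = 0.613). Gria3 was also above it in both, at 0.10 and 0.36. Gria1 was below control in both rescue samples, at -0.53 and -0.13, as it was in both knockdown samples, and the same control arrays stand under both groups. Gria4 was at 0.10 and -0.14. Of the 10 genes 0 passed in limma, where 0 of all genes passed, and 2 had an unadjusted p under 0.05 (Cacng3 and Gria2), where 7.44% of all genes did. The fit with the block passed 0 of the 10 and 0.125% of the genes measured. Above control in both rescue samples were 4 of the 10, against 24.9% of all genes, and below it in both were 2 of the 10, against 29.8%.

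The third comparison set knockdown against rescue, the groups that share the shRNAs. Within a repeat both are ratios to the same control array, which drops out of their difference. Cacng3 was lower in the knockdown by nearly the same amount in both repeats, with differences of -1.53 and -1.44. Its level in the knockdown was 35.8% of that in the rescue (mean difference -1.48, SE 0.24, n = 2 per group, 95% interval -2.03 to -0.94). The limma adjusted p was 0.121, and 0.00740 with the repeat as a block. Leaving out a knockdown sample kept the direction (-1.21 without knockdown replicate 1, -1.75 without knockdown replicate 2). So did leaving out a rescue sample (-1.71 without rescue replicate 1, -1.26 without rescue replicate 2). Whether Cacng3 passed turned on which group lost a sample. The lone sample left in a group is assumed to vary like the other group, so these calls are not read as evidence. In 9 of 19938 genes, Cacng3 included, the difference was at least as low as -1.44 in both repeats. A difference of at least 2-fold downward in both repeats was found in 0.201% of all genes.

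Cacng5 differed by -0.55 and -0.76 (mean -0.65, SE 0.21, n = 2 per group, limma adjusted p = 0.491). Cacng8 differed by -0.41 and -0.79 (mean -0.60, SE 0.18, limma adjusted p = 0.429), and Cacng2 by -0.44 and -0.35 (mean -0.39, limma adjusted p = 0.705). These 3 TARPs were lower in the knockdown in both repeats, and none of them passed with the repeat as a block either (adjusted p = 0.114, 0.164 and 0.341). Cacng7 differed by 0.13 and 0.18. Cacng4 differed by 0.21 in repeat 1 and -0.23 in repeat 2, with no common direction.

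Gria2 differed by -0.23 and -0.68 (mean -0.46, SE 0.18, n = 2 per group, limma adjusted p = 0.649). Gria3 differed by -0.38 and -0.18. Both were lower in the knockdown in each repeat, and Gria4 was higher in each, by 0.52 and 0.18. Gria1 differed by 0.32 in repeat 1 and by -0.49 in repeat 2, and its direction turned with the setting (mean -0.09, or 0.03 after quantile normalization). The 95% interval of the Gria1 difference ran from -0.58 to 0.41, a range in which a difference either way could lie.

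Of the 10 genes 0 passed in limma, where 0.0702% of all genes passed (8 higher and 6 lower, or 3 and 1 with each column centred on its median). In simulated data the fit without the block recovered 14% of 2-fold changes in this comparison, against 80.4% for knockdown against control. A gene that did not pass here may therefore still differ by such an amount. At an unadjusted p under 0.05 there were 5 of the 10 genes (Cacng3, Cacng8, Cacng5, Gria2 and Cacng2), against 6.82% of all genes. The fit with the block passed 1 of 10, where it passed 0.431% of the genes measured as lower. Both knockdown samples lay below both rescue samples for 5 of the 10 genes, Gria2, Cacng2, Cacng3, Cacng5 and Cacng8, where this held for 15.1% of all genes. The reverse order held for Cacng7 alone, against 16.5% of all genes. Cacng3 and Cacng5 lay below control in both knockdown samples and above it in both rescue samples, a pattern of 4.45% of all genes, and Cacng7 showed the opposite pattern, one of 4.42% of all genes.

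**Figure D2:**
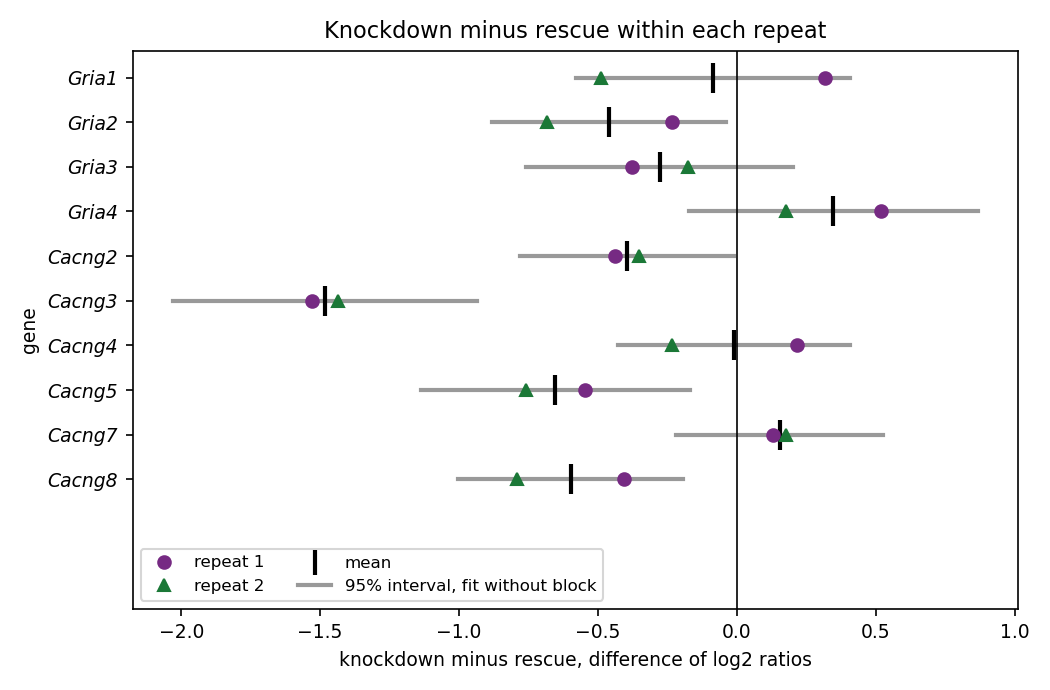
Knockdown minus rescue as a difference of log2 ratios (horizontal axis) for each gene (vertical axis). Circles are repeat 1, triangles repeat 2, black ticks the mean and grey lines the 95% interval of the limma fit without a block. The circle and the triangle of Cacng3 lie at -1.53 and -1.44, and those of Gria1 and Cacng4 lie on opposite sides of 0.

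**Figure D3:**
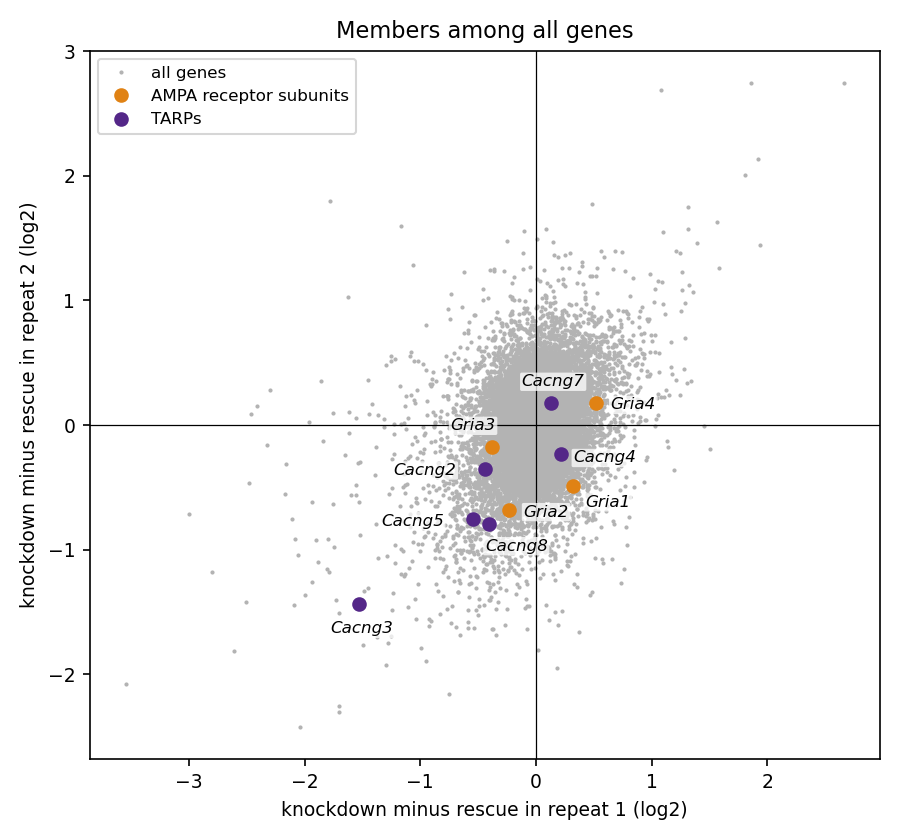
Knockdown minus rescue in repeat 1 (horizontal axis) and in repeat 2 (vertical axis), both on the log2 scale, for all 19938 genes in grey, the AMPA receptor subunits in orange and the TARPs in purple. Cacng3 lies at the lower left edge of the cloud, and the other 9 genes lie within it.

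Differences between genes within a column show which members had unequal ratios, and they were picked with the values known. The mean of the 4 type I TARPs minus the mean of the 4 subunits was -0.55 and -0.28 in the knockdown samples and 0.04 and 0.13 in the rescue samples. Cacng3 minus Cacng2 was -0.74 and -0.36 in the knockdown, against 0.35 and 0.73 in the rescue, so Cacng3 lay below its close relative in the knockdown and above it in the rescue. Cacng3 minus Cacng8 was -0.71 and -0.0092 in the knockdown, against 0.41 and 0.64 in the rescue, so that these 2 genes were level in knockdown repeat 2. Gria2 minus Gria1 was 0.26 and 0.35 in the knockdown, against 0.81 and 0.54 in the rescue. It was above 0 in all 4 columns, and lower in both knockdown samples than in both rescue samples.

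The genes whose 4 ratios were most like those of Cacng3 were Lamp5, a neuronal membrane protein of the LAMP family, Grasp, a scaffold that binds metabotropic glutamate receptors, and Klf10, a zinc finger transcription factor. Their root mean square distances from Cacng3 were 0.177, 0.195 and 0.203 on the log2 scale, where the median over all genes was 0.830. Lamp5 was at -1.17 and -0.54 in the knockdown and at 0.64 and 0.61 in the rescue. For Gria1, the subunit farthest from control in the knockdown, the nearest were Rab26, a small GTPase of secretory vesicles, Hectd4 and Tshz2, at distances of 0.0581, 0.0584 and 0.0638 (median 0.463). These likenesses rest on 4 columns and are a description.

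Other proteins of the AMPA receptor complex were below control in the knockdown without passing the test. Of 12 other auxiliary and assembly genes 11 were measured, all 11 had a mean below control in the knockdown, as did 49.6% of all genes, and 0 passed in limma. An unadjusted p under 0.05 was found for 6 of the 11, against 16.0% of all genes. Their median was -0.29 in the knockdown and -0.12 in the rescue, beside 0.00 and -0.01 for all genes. Frrs1l, which acts in receptor assembly in the endoplasmic reticulum, was at -0.45 and -1.05 in the knockdown and at -0.45 and -0.35 in the rescue. Shisa6, an auxiliary subunit, was at -0.25 and -1.18 in the knockdown, against -0.25 and -0.30 in the rescue. Cnih2, the cornichon that accompanies AMPA receptors in forebrain neurons, was at -0.35 and -1.03 in the knockdown, against -0.20 and -0.48 in the rescue. These 3 genes were below control in all 4 samples, farthest in knockdown repeat 2, unlike Cacng3, which was lower in knockdown repeat 1 than in repeat 2. Under the block 4 of the 11 passed as lower against control (Cnih2, Shisa6, Frrs1l and Prrt1), where 3.48% of all genes did, and 0 against the rescue.

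Of 18 anchoring and trafficking genes 17 were measured, 15 had a mean below control in the knockdown (49.6% of all genes), and 0 passed in limma in each comparison (10 with an unadjusted p under 0.05 against control, where 16.0% of all genes had one). Their median was -0.36 in the knockdown and -0.06 in the rescue. Dlg4 (PSD-95), the scaffold to which the tails of type I TARPs bind, was at -0.70 and -0.53 in the knockdown, and at -0.09 and 0.14 in the rescue. Dlg3 (SAP102) was at -0.57 and -0.74 in the knockdown and at 0.01 and -0.15 in the rescue. For both genes the 2 knockdown samples lay below the 2 rescue samples. This held for 11 of the 17 genes and for 15.1% of all genes. Nptx1, a pentraxin that clusters AMPA receptors from outside the cell, was at -0.87 and -2.20 in the knockdown and at -1.17 and -1.62 in the rescue, far below control in all 4 samples (limma adjusted p = 0.0668 in the knockdown and 0.464 in the rescue, 0.00262 and 0.0176 with the repeat as a block). Under the block 6 of the 17 passed as lower in the knockdown (Grip1, Dlg2, Dlg3, Dlg4, Lrrtm1 and Nptx1), against 3.48% of all genes.

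Subunits of the related kainate and delta receptors with their Neto partners had a median of -0.47 in the knockdown and -0.14 in the rescue. Of 8 measured among 9, 7 had a mean below control in the knockdown and 0 passed in limma (6 with an unadjusted p under 0.05, and 3 lower with the repeat as a block, namely Grik3, Grik5 and Neto1). The shares of all genes were 49.6%, 16.0% and 3.48% for the mean, the unadjusted p and the block. Neto1, an auxiliary subunit of kainate receptors, was at -0.33 and -0.75 in the knockdown and at 0.18 and -0.46 in the rescue. Of the 3 adenosine deaminases acting on RNA, Adarb1, the enzyme that edits the Gria2 transcript at the site in its pore, was at -0.26 and -0.39 in the knockdown and at 0.20 and 0.15 in the rescue (limma adjusted p = 0.236 in the knockdown, n = 2). Cacng1, the gamma subunit of the muscle calcium channel, which is not a TARP, was at -0.12 and 0.22 in the knockdown and at -0.18 and 0.13 in the rescue.

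**Figure D4:**
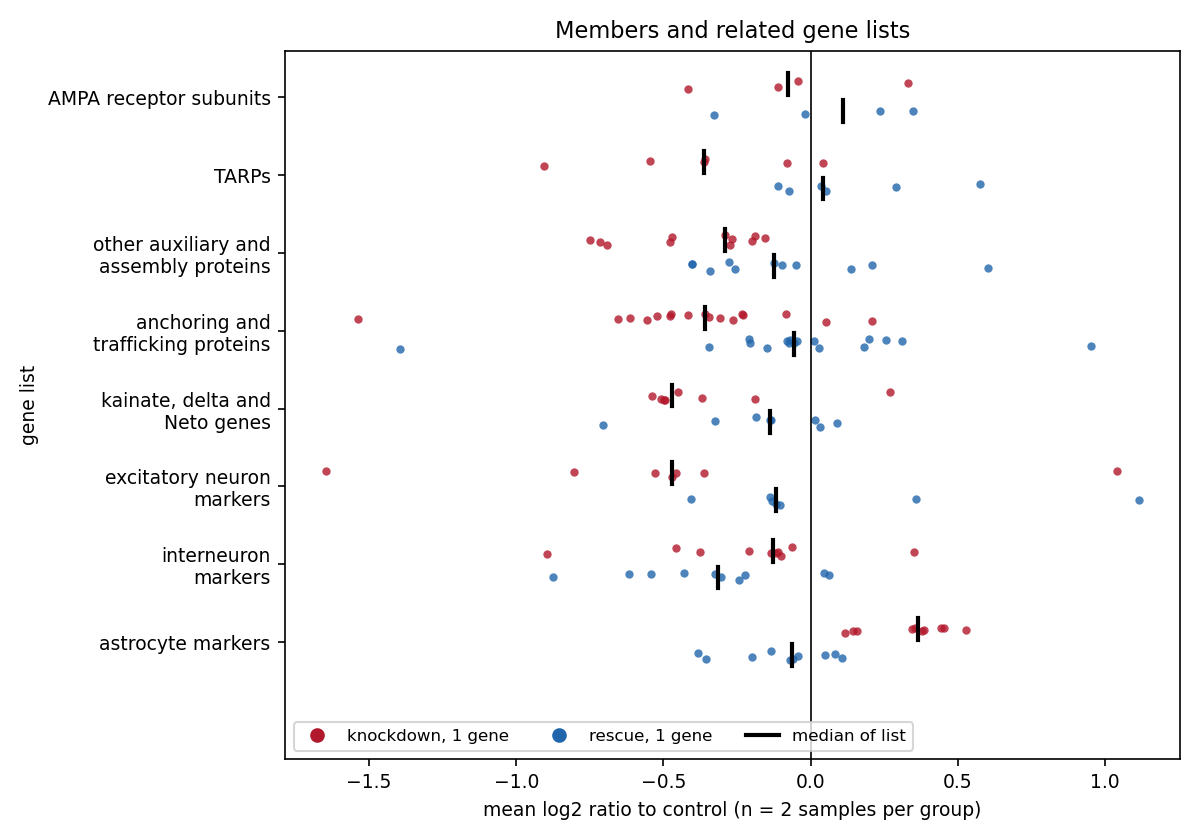
Mean log2 ratio to control (horizontal axis, n = 2 samples per group) for each measured gene of 8 lists (vertical axis), with the knockdown in red above the rescue in blue and black ticks at the list medians. The TARP median is -0.36 in the knockdown and 0.04 in the rescue, and the astrocyte marker median is 0.37 in the knockdown and -0.06 in the rescue.

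Markers of cell types also stood away from control in these samples. In bulk cultures, fewer cells of a type and less RNA per cell cannot be told apart. Excitatory neuron markers had medians of -0.33 and -0.68 in the 2 knockdown samples and -0.06 and -0.03 in the 2 rescue samples. Below control in both knockdown samples were 6 of 7, against 31.1% of all genes. Of the excitatory markers, Neurod6 was at -0.81 and -2.49 in the knockdown and at 0.90 and -0.18 in the rescue. Slc17a6 was above control in all 4 samples. Broad neuron markers had medians of -0.08 and -0.13 in the knockdown, against -0.07 and -0.04 in the rescue. These medians cover genes on both sides of control, with knockdown means from -0.64 (Rbfox3) to 0.62 (Nefl). A knockdown mean below control was found for 4 of the 8, against 49.6% of all genes. Interneuron markers had medians of 0.15 and -0.49 in the knockdown, against -0.30 and -0.56 in the rescue. Astrocyte markers lay above control in both knockdown samples for 10 of 10 genes, against 30.5% of all genes. Astrocyte medians were 0.27 and 0.37 in the knockdown, against -0.08 and -0.03 in the rescue. Medians of the oligodendrocyte lineage were 0.03 and 0.18 in the knockdown, against -0.09 and -0.15 in the rescue. Microglia markers had medians of -0.40 and 0.05 in the knockdown, against -0.20 and -0.07 in the rescue, endothelial markers 0.03 and 0.27 in the knockdown, against 0.02 and 0.06 in the rescue, and fibroblast markers -0.06 and 0.53 in the knockdown, against -0.12 and -0.09 in the rescue. Of 64 markers measured 0 passed in limma in each comparison. An unadjusted limma p under 0.05 in the knockdown against control was found for 16.0% of all genes and for 21 of the 64 markers. With the repeat as a block, 5 passed as higher in the knockdown than in control (Gja1, Sox9 and S100b of the astrocyte list, Eno2 and Slc17a6), where 1.91% of all genes did. As lower passed 6 (Neurod6, Slc17a7 and Emx1 of the excitatory list, Gad1, Gad2 and Rbfox3), where 3.48% of all genes did. Under the block Gad1 also passed as lower in the rescue than in control, where 0.125% of all genes passed in either direction. Neurod6 passed against the rescue, lower in the knockdown (adjusted p = 0.00570), where 0.431% of all genes did. The part of these markers in the values of the receptor and TARP genes was likewise not tested.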

How the data were processed

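The authors deposited linear ratios of each test array to the control array of its repeat, per the labels and the series' own design text. Background correction, summarization, normalization between arrays and the genome build are not given in the sources used here, and the 2 control arrays were not analysed here. The table held 35399 probe sets, of which 21789 had exactly 1 symbol in the platform annotation, 1621 several, and 11989 were not listed. Entrez identifiers of 21698 matched RefSeq names of GRCm38.p6, and 0 symbols changed. The log2 of each ratio was averaged per symbol.

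The test, two-sided, was that of limma 3.58.1 (lmFit, eBayes; R 4.3.3), with a coefficient per group over all 4 columns (2 residual and 6.11 prior degrees of freedom), and Benjamini-Hochberg adjustment ran over 19938 genes. Each repeat had its own control array, so the spread between these arrays is in the error of this fit. Both groups share the control array of a repeat, so their deviations are not independent, which the fit without a block does not model. Samples of the same number share a date in the labels, which pairs them, and their deviations from the group means correlated at 0.305 across genes. The repeat was therefore also fitted as a block, which leaves the spread of the control arrays out of the error against control and so gives p-values there that are too small. An exact permutation test of 2 against 2 samples cannot go below p = 0.333. The number of arrays limits the precision. The members, lists and within-column differences were chosen with earlier results of these data known. All 10 members are named. Of other lists, genes past a threshold and the 4 farthest from control in the knockdown could be named, with 3 nearest genes for 1 subunit and 1 TARP. Cnih3 and Lrrtm2, outside that rule, were named after their values were seen. The scripts were tested on simulated data. Of the promoter windows searched 1 is printed, and a window that was not searched is not reported here.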

Additional observations from a re-analysis of the deposited data

Results flagged for a closer look

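Among the 10 genes and the 40 measured genes of the related receptor lists, 6 lay below control in both knockdown samples and above it in both rescue samples, as did 4.45% of all genes, and Cacng7 showed the reverse, as did 4.42% of all genes. These 7 are listed here for that pattern. The knockdown minus rescue difference was tested in limma and passed for none of them without the block. Cacng3 differed by -1.48 on the log2 scale (adjusted p = 0.121, or 0.00740 under the replicate block). Cacng5 differed by -0.65 (adjusted p = 0.491) and Cacng7 by 0.15 (adjusted p = 1.00). Among partners of the receptor, Cnih3, a cornichon, differed by -0.50 (adjusted p = 0.494), Dlg2, a postsynaptic scaffold, by -0.65 (adjusted p = 0.361), and Lrrtm2, a synaptic adhesion protein, by -0.66 (adjusted p = 0.476). Adarb1 differed by -0.50 (adjusted p = 0.499). Under that block Cacng3 alone of the 7 passed. The same control arrays stand under both groups, and they drop out of these differences within a repeat.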

How the results depend on the processing

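Counts over all genes moved with the fit. For knockdown against control the count was 61, and it was 20 after quantile normalization, 0 with every probe set tested on its own (where more features were tested), 1074 with the repeat as a block, 12 with the knockdown columns alone and 12 to 1272 with 1 sample left out. For rescue against control it was 0, and it was 1 after quantile normalization, 25 with the block, 176 with the rescue columns alone and 0 to 176 with 1 sample left out. For knockdown against rescue it was 14, and it was 4 with each column centred on its median, 2 after quantile normalization, 0 with every probe set, 4 with the probe set farthest from 0 per gene, 123 with the block and 0 to 350 with 1 sample left out. Apart from the fewer or more features and samples, the cause was not tested.

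Of 270 values of the 10 genes under alternatives, 250 kept their direction and their side of the threshold, 6 came past it, for Cacng3 and Cacng8, and 14 changed sign, for genes near 0. Many of the 270 could not change sign. The block leaves a mean as it is, and the probe set settings alter only Cacng2 of the 10 genes. A rescue sample left out does not alter a knockdown mean, nor a knockdown sample a rescue mean. For knockdown against rescue, quantile normalization turned Gria1 to 0.032 and Cacng4 to 0.013. For rescue against control, the probe set farthest from 0 turned Cacng2 to -0.050. The rest turned with 1 sample left out. In the knockdown these gave -0.27 to 0.050 for Gria2, -0.27 to 0.19 for Gria3 and -0.23 to 0.065 for Cacng4. In the rescue they gave -0.14 to 0.10 for Gria4, -0.0011 to 0.071 for Cacng2, -0.15 to 0.0058 for Cacng4 and -0.061 to 0.16 for Cacng8. Between knockdown and rescue they gave -0.29 to 0.12 for Gria1 and -0.16 to 0.14 for Cacng4. Cacng3 kept its direction in all 3 comparisons under every alternative run, at -1.18 to -0.64, 0.35 to 0.80 and -1.75 to -1.21. Its adjusted p for knockdown against rescue ran from 0.000260 to 1.00, and the repeat as a block changed no call among the 10 genes beyond those of Cacng3 and Cacng8. The ratios hold no signal levels, so how depth of signal limits these values could not be read.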
